A study of Mus musculus with 24 samples.

Results

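The collagen genes are the family whose products form the triple-helical scaffold of the extracellular matrix. They were taken as every gene of the count table whose symbol reads Col, a type number, the letter a and a chain number. This rule found 44 of 55401 genes. Of these, 11 code for fibrillar chains, 8 for chains of basement membranes (6 of type IV and 2 multiplexins, *Col15a1* and *Col18a1*), and 25 for other types. The last class held 9 FACIT genes (collagens that sit on the surface of fibrils), 6 genes of type VI beaded filaments, 4 transmembrane collagens, 3 short chain network collagens, the anchoring fibril gene *Col7a1*, and *Col26a1* and *Col28a1*.

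Collagen chains fold into triple helices in the endoplasmic reticulum, are hydroxylated and glycosylated there, and are trimmed and cross-linked outside the cell. Fibrillar types I, III and V give tissue its tensile strength, and type IV networks, together with laminins, nidogens and perlecan, form the basement membranes under epithelium, trophoblast and endothelium. In the placenta, type IV collagen is a main component of the matrix laid down around trophoblast and fetal vessels and by parietal endoderm, while stromal cells of the decidua deposit fibrillar collagens.

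RNA came from the maternal-fetal interface (MFI) of wild-type (WT) mice and of mice homozygous for a CRISPR-Cas9 deletion in *C1qtnf6* (C1qtnf6-KO), both on a C57BL/6 background, at 4 gestational days (gd), from gd10.5 through gd14.5 and gd16.5 to gd19.5, shortly before birth. Each of the 8 groups had 3 libraries, 24 in all, with no other treatment. The labels tie no library to a dam or litter, so p-values measure the spread between these libraries. Levels are given as CPM, counts scaled to a common library size, on TMM-normalized library sizes, and levels of different genes are compared only after division by exon length (CPM per kb). A gene was called when its Benjamini-Hochberg adjusted p in edgeR's quasi-likelihood test, over all genes tested, was under 0.05 and its absolute log2 fold change was over 1. Errors after log2 fold changes are standard errors.

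Total counts lay between 20975717 and 37383108 per library, and 3 counts, used here as the detection limit that counting error sets, came to 0.0803 to 0.143 CPM. *C1qtnf6* itself was at 64.7 to 168.3 CPM in the 12 WT libraries and at 0.0341 to 2.05 CPM in the 12 KO libraries. Each of 5 trophoblast giant cell and 5 junctional zone markers was above the detection limit in every library. The summed level of 7 yolk sac endoderm markers (*Afp*, *Ttr*, *Apoa1*, *Apoa4*, *Apob*, *Amn* and *Cubn*) set 7 libraries apart. It was 3932.4 CPM in WT gd10.5 replicate 1 against 15.4 and 21.8 CPM in the other WT libraries of that day, and 1276.2 to 3904.1 CPM in all KO libraries of gd10.5. At gd16.5 it was 8185.6 CPM in WT replicate 1, 7813.4 and 22124.9 CPM in KO replicates 1 and 2, and 85.9 to 196.2 CPM in the remaining libraries. It did not exceed 314.6 CPM at gd14.5 or gd19.5, and *Amn* was at or under the detection limit in 4 libraries, all of them among those with low sums. KO gd10.5 replicate 2 also stood apart with 10728.2 CPM of 5 junctional zone trophoblast markers, against 887.2 to 2112.7 CPM in the other libraries of gd10.5. Counts of calls were also made without such libraries where libraries of the group remained, and values are given without them where a call or a direction changed.

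Type IV collagen dominated the collagen RNA of the MFI. Per kb of exon, *Col4a1* had a mean of 282.1 CPM per kb over the 24 libraries and *Col4a2* 150.8 CPM per kb, and together they made up 63.4 to 80.8% of the summed CPM per kb of all 44 genes in a library. These genes code for the chains of the ubiquitous type IV network. The fibrillar genes came next. *Col3a1* (type III, found in compliant tissues) had 39.1 CPM per kb, *Col5a2* 25.3 CPM per kb, *Col1a1* 16.2 CPM per kb and *Col1a2* 14.7 CPM per kb. Before division by length *Col1a2* was higher, with 182.3 CPM over 12426 exon bases against 106.5 CPM over 6563 for *Col1a1*. Their order thus rests on the annotated exon lengths. Type V chains help to start and to limit the width of type I fibrils. The FACIT gene *Col12a1* (8.59 CPM per kb), the multiplexin *Col18a1*, the precursor of endostatin (7.92 CPM per kb), and *Col5a1* (7.87 CPM per kb) followed, with means that lay close to each other. *Col6a1* (3.65 CPM per kb), *Col15a1* (3.19 CPM per kb) and *Col6a3* (2.45 CPM per kb) completed the 12 most abundant genes, which held 95.4 to 97.7% of the summed CPM per kb. At the other end, 10 genes had a mean under 1 CPM, and *Col10a1* and *Col19a1* were at or under the detection limit in 18 and 22 of the 24 libraries and were not tested in any comparison. All collagen genes together took 0.308 to 0.634% of a library's counts.

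**Figure D1:**
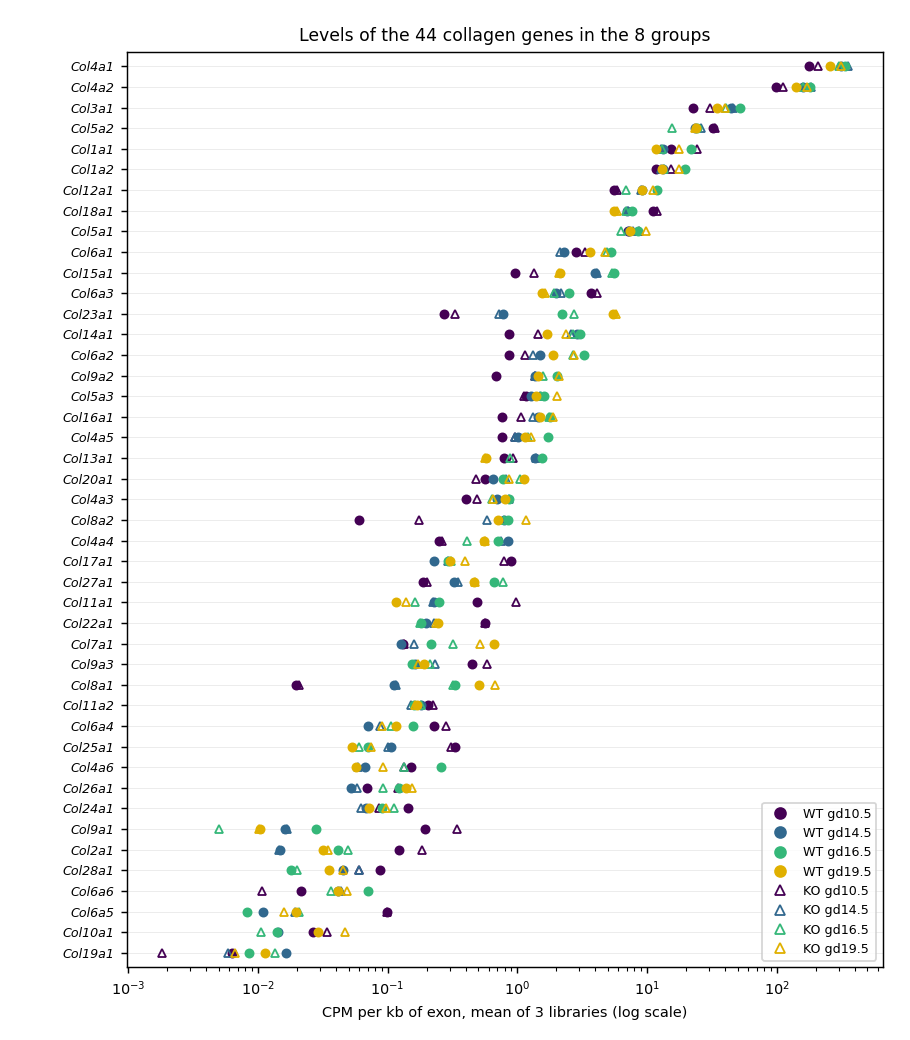
Mean level of each of the 44 collagen genes in the 8 groups, in CPM per kb of exon on a log scale, with filled circles for WT, open triangles for KO and a colour for each stage. *Col4a1* and *Col4a2* lead with means of 282.1 and 150.8 CPM per kb, and the levels span from there to *Col10a1* and *Col19a1*. A group mean of 0, as for *Col10a1* in KO gd14.5, is not drawn.

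*Col4a1* and *Col4a2* lie head to head on chromosome 8 (GRCm38) and are read in opposite directions. *Col4a1* spans 11198423 to 11312826 on the minus strand and *Col4a2* 11312805 to 11449287 on the plus strand, so that their annotated transcripts share their first 22 bases. The shared bases are shown in capitals with 4 bases on each side, from RefSeq's GRCm38.p6 (chr8:11312801-11312830, plus strand), since the pair gave the most even ratio among the paired chains examined.
Col4a1 and Col4a2: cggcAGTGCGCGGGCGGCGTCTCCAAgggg

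The *Col4a1* level per kb was 1.72 to 1.99 times that of *Col4a2* in the 24 libraries, with a median of 1.87, although *Col4a1* itself ranged from 1236.6 to 3274.0 CPM. The other type IV pairs are also neighbours. The starts of *Col4a3* and *Col4a4* lie 72 bases apart on chromosome 1 and those of *Col4a5* and *Col4a6* 1309 bases apart on chromosome X. Their ratios per kb were less even, from 0.606 to 2.53 for *Col4a3* over *Col4a4* and from 3.44 to 35.2 for *Col4a5* over *Col4a6*. These genes had fewer counts, and *Col4a6* in particular was at 3.34 and 5.33 CPM in the WT libraries with the highest yolk sac endoderm markers of gd10.5 and gd16.5 and at 0.135 to 1.94 CPM in all others. *Col1a1* over *Col1a2*, the chains of type I collagen, ranged from 0.638 to 1.71 per kb. Both extremes were WT libraries of gd10.5, replicates 2 and 1. Reads from opposite strands were counted together, but only 22 bases, 0.295% of the *Col4a1* exons, are shared with *Col4a2*.

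Promoter sequences were found in RefSeq for 35 of the 44 genes. Those for the most abundant fibrillar gene and for 3 genes that led the calls at a stage step are given below as the bases that precede the start of transcription, 5′ to 3′ on the strand of the gene. Capitals mark each match, on either strand, to GGGCGG (the core of an Sp1 site), to CCAAT (the core of an NF-Y site) or to TATAAA, the sequence bound by TBP, and matches may overlap. The windows are chr1:45311288-45311537 (plus strand) for *Col3a1*, chr16:57754738-57754987 (minus strand) for *Col8a1*, chr4:126286544-126286792 (plus strand) for *Col8a2* and chr9:108953336-108953585 (plus strand) for *Col7a1*, all in GRCm38.p6.
Col3a1: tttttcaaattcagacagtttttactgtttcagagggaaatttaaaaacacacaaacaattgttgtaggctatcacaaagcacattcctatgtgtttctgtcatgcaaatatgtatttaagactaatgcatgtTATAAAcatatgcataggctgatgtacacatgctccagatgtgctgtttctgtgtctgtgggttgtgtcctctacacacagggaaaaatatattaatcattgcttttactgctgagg
Col8a1: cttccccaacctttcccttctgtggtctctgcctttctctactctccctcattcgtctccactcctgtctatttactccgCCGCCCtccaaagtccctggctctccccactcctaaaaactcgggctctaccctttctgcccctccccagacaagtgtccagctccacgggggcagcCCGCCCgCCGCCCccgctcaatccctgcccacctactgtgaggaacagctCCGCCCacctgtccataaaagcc
Col8a2: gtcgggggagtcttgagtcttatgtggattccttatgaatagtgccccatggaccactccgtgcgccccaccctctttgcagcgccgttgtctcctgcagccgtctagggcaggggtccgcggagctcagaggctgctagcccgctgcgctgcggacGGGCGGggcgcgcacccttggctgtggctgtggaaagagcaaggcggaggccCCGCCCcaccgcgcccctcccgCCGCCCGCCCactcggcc
Col7a1: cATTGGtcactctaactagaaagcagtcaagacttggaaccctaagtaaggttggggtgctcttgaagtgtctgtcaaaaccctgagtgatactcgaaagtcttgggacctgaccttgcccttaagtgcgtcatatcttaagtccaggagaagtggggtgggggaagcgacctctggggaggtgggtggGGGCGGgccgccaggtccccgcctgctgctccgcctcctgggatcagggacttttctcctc

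*Col8a1* and *Col8a2*, which code for the chains of type VIII short chain networks made by vascular and corneal endothelium, each had 4 matches to GGGCGG, a number reached by 4.09% of all 32851 promoter windows of 250 bases. *Col3a1* had none of these and 1 match to TATAAA, a motif found in 12.4% of all windows. *Col7a1* had 1 match to GGGCGG and 1 to CCAAT, which occur in 32.7% and 33.8% of all windows. Of the 38 windows of the 35 collagen genes with a window, 22 held GGGCGG, 13 held CCAAT and 5 held TATAAA. These matches describe the letters in the windows and say nothing of binding.

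Between gd10.5 and gd14.5, the interval in which the labyrinth and junctional zone of the placenta mature, type VIII, *Col15a1*, *Col4a4*, *Col14a1* and *Col23a1* rose in WT, while several sparse FACIT, transmembrane and type VI genes fell. Of 40 collagen genes tested, 6 rose and 8 fell, beside 10.7% of all tested genes that rose and 11.6% that fell. Their median log2 fold change was 0.17, against -0.01 for all genes. By class, 2 of 8 basement membrane genes rose, 2 of 11 fibrillar genes fell, and 4 of 21 other genes rose while 6 fell. In KO, 5 of 39 genes tested rose and 8 fell, beside 8.53% and 10.2% of all genes.

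*Col8a1* was at 0.0688, 0.27 and 0.127 CPM in WT at gd10.5, which is 2 to 10 counts per library, and at 1.11, 0.774 and 0.758 CPM at gd14.5. The groups did not overlap, and the log2 fold change was 2.41 ± 0.34 in WT (adjusted p = 5.44e-05, edgeR) and 2.48 ± 0.51 in KO (adjusted p = 0.00276, edgeR). *Col8a2* went from 0.482, 0.162 and 0.169 CPM to 3.32, 3.29 and 4.04 CPM in WT, a log2 fold change of 3.70 ± 0.30 (adjusted p = 5.9e-07, edgeR). In KO its log2 fold change was 1.77 ± 0.65 (adjusted p = 0.0427, edgeR). KO replicate 2 of gd10.5, the library with high junctional zone markers, had 1.98 CPM of *Col8a2* against 0.112 and 0.242 CPM in the other KO libraries, and without it the change was 3.84 ± 0.34 and 19 collagen genes were called in KO at this step. With any 1 of the other 11 KO libraries left out, the call of *Col8a2* in KO was lost, with values down to 1.26.

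*Col15a1*, a multiplexin that links basement membranes to the underlying fibrils, rose by 2.05 ± 0.31 on the log2 scale in WT (7.5, 5.24 and 5.46 CPM to 17.7, 30.6 and 27.0 CPM; adjusted p = 0.000101, edgeR) and by 1.61 ± 0.36 in KO (adjusted p = 0.004). *Col4a4*, a chain of the specialised type IV network known from the glomerulus, rose by 1.78 ± 0.31 in WT and by 1.52 ± 0.24 in KO. *Col14a1*, a FACIT, rose by 1.75 ± 0.27 in WT and was 0.84 ± 0.29 higher in KO, under the fold-change limit, and 1.22 and called without KO gd10.5 replicate 2. *Col23a1*, a transmembrane collagen, rose by 1.55 ± 0.21 in WT and by 1.11 ± 0.31 in KO, where the value was 0.99 and not called without KO gd10.5 replicate 1.

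The genes that fell were mostly at low levels. *Col17a1*, the transmembrane collagen of hemidesmosomes, fell by 1.97 on the log2 scale in WT (SE 0.27, adjusted p = 3.96e-05, edgeR), from 5.89, 4.59 and 5.71 CPM to 1.13, 1.58 and 1.39 CPM. In KO the groups overlapped, since replicate 2 of gd10.5 already stood at 1.37 CPM, and the change was -1.43 ± 0.49. Without that replicate it was -1.86, and the call was lost with any 1 of 4 other libraries left out (KO gd10.5 replicates 1 and 3, KO gd14.5 replicates 1 and 2). *Col25a1*, another transmembrane collagen, fell by 1.60 in WT and 1.63 in KO, and the FACIT gene *Col22a1* by 1.49 in WT and 1.30 in KO. The KO call of *Col22a1* was lost without KO gd10.5 replicate 1 or 3 or KO gd14.5 replicate 1 or 3, and without KO gd10.5 replicate 2 the value was -1.64. Of type VI, *Col6a4* fell by 1.73 in WT and 1.69 in KO. *Col6a5* was called lower in WT, with 23 to 34 counts per library at gd10.5 and 1 to 5 counts at gd14.5, so the size of its fall is not well determined. With *Col2a1*, described below, the FACIT gene *Col9a3* and the fibrillar gene *Col24a1* complete the 8 that fell in WT. The WT libraries of *Col24a1* overlapped, at 0.55 to 1.55 CPM at gd10.5 and 0.316 to 0.631 CPM at gd14.5.

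*Col2a1* and *Col9a1*, both known from cartilage and notochord, were counted in every library of gd10.5, at levels that differed widely between them. *Col2a1* was at 2.93 CPM in WT replicate 1 and at 0.297 and 0.169 CPM in the other WT libraries of gd10.5, then at 0.105 to 0.168 CPM at gd14.5. Its call in WT (log2 fold change -3.04 ± 0.99, adjusted p = 0.0192, edgeR) was lost without WT gd10.5 replicate 1, where the change was -0.84 (adjusted p = 0.353), and also without WT gd14.5 replicate 1 (adjusted p = 0.0649) or 2 (adjusted p = 0.0567). In KO it was at 0.747, 2.21 and 2.18 CPM at gd10.5 and at 0.115 to 0.157 CPM at gd14.5, and was called lower (-3.64 ± 0.58). *Col9a1* was at 2.55 CPM in that library, at 1.38 and 3.5 CPM in KO replicates 1 and 3 of gd10.5, and at 0.0258 to 0.343 CPM in the other libraries of gd10.5 and gd14.5. It was called lower in KO, where gd14.5 had 1 to 6 counts per library, and was not tested in WT. The fibrillar gene *Col11a1* followed the same libraries, with 16.2 CPM in WT replicate 1 and 0.864 and 1.52 CPM in the other WT libraries of gd10.5. In KO *Col11a1* fell without overlap, from 11.6, 8.15 and 17.6 CPM at gd10.5 to 2.61, 2.94 and 2.95 CPM at gd14.5. Without WT replicate 1 it was called higher in WT at gd14.5 (log2 fold change 1.30 ± 0.31, adjusted p = 0.00346, edgeR), while with all WT libraries it was -1.11 and not called. *Col4a6* turned in the same way, from -1.18 to 1.81, and was called in neither fit. In that fit, 18 collagen genes were called, 12 higher and 6 lower, and *Col3a1* (1.23 ± 0.20), *Col4a5*, *Col9a2*, *Col16a1* and *Col27a1* were among those that rose. A set of 7 cartilage markers had nearly even sums in the WT libraries of gd10.5 (44.1 to 48.4 CPM) and 27.3 to 59.5 CPM in KO. At gd14.5 the sums were 11.9 to 17.5 CPM, and *Snorc* was at or under the detection limit in all libraries of both days. Of this set, *Matn1* was called higher at this step in WT (1.45) and KO (2.23), while 2 markers in WT and 3 in KO were called lower. Whether yolk sac or other embryonic tissue in a library contributed to these levels was not tested, and in bulk RNA fewer cells of a type and less RNA per cell cannot be told apart.

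**Figure D2:**
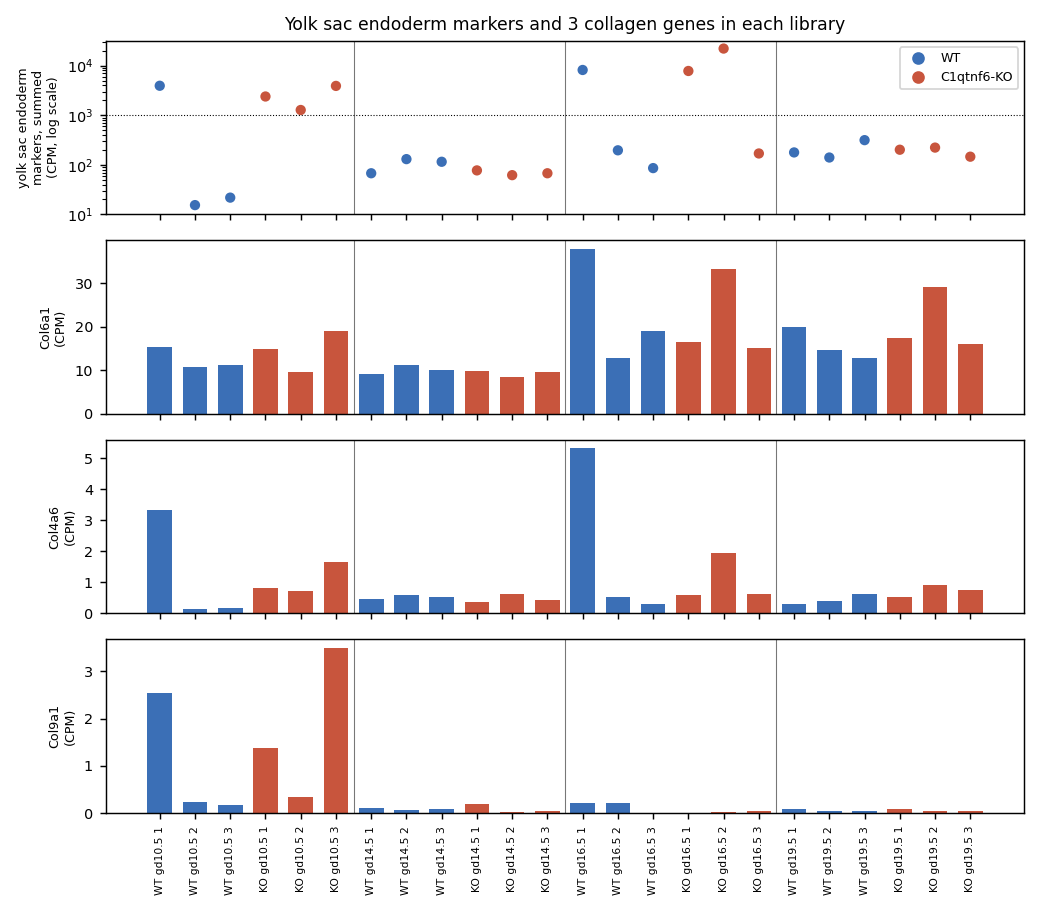
Each library's summed CPM of 7 yolk sac endoderm markers (points, log scale, dotted line at 1000 CPM) and its CPM of *Col6a1*, *Col4a6* and *Col9a1* (bars from 0), with WT in blue and KO in red. The 7 libraries above the line are WT replicate 1 and all KO libraries of gd10.5, and WT replicate 1 and KO replicates 1 and 2 of gd16.5. *Col4a6* is highest in the 2 WT libraries above the line, and *Col6a1* is highest in WT gd16.5 replicate 1 and KO gd16.5 replicate 2. KO gd16.5 replicate 1, also above the line, has *Col6a1* at 16.4 CPM and *Col4a6* at 0.598 CPM. These are close to 15.2 and 0.639 CPM in KO gd16.5 replicate 3, below the line. *Col9a1* does not exceed 0.221 CPM in any library of gd16.5.

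Between gd14.5 and gd16.5, *Col8a1*, *Col23a1* and 3 genes of type VI collagen rose in WT. Type VI forms beaded filaments close to cells. In all, 5 of 40 genes rose and 0 fell, beside 3.04% and 2.55% of all genes, and all 5 were of the other class. The median log2 fold change of the collagen genes was 0.34, against -0.01 for all genes. In KO, 6 of 39 rose and 0 fell, beside 4.78% and 2.76% of all genes. *Col8a1* reached 2.73, 2.61 and 2.38 CPM in WT (log2 fold change 1.54 ± 0.25, adjusted p = 0.000926, edgeR) and rose by 1.45 ± 0.38 in KO, a call that was lost without KO gd14.5 replicate 1 or 2 or KO gd16.5 replicate 1. *Col23a1* went from 4.95, 4.2 and 4.25 CPM to 12.4, 14.1 and 11.4 CPM in WT (1.50 ± 0.18, adjusted p = 0.000127) and rose by 1.93 ± 0.28 in KO.

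The type VI genes were less even. *Col6a1* was at 37.9, 12.8 and 19.1 CPM in WT at gd16.5, against 9.14, 11.2 and 10.1 CPM at gd14.5 (log2 fold change 1.20 ± 0.31, adjusted p = 0.015, edgeR). *Col6a2* changed by 1.14 ± 0.27 and *Col6a4* by 1.20 ± 0.32. Their highest library was WT replicate 1, the library with high yolk sac endoderm markers. Without it, only *Col23a1* (1.52 ± 0.20) and *Col8a1* (1.49 ± 0.28) were called, and *Col6a1* stood at 0.66 (adjusted p = 0.058). Leaving out WT gd14.5 replicate 1 in its place also left 2 calls. The call of *Col6a1* was also lost without WT gd14.5 replicate 3 (adjusted p = 0.0525), and that of *Col6a4* without WT gd14.5 replicate 2 (adjusted p = 0.0732). In KO, *Col6a1* (1.23 ± 0.34), *Col6a2* (1.03 ± 0.25), *Col27a1* (1.17) and *Col7a1* (1.01) were called beside *Col23a1* and *Col8a1*. When KO replicates 1 and 2 of gd16.5 were left out, which leaves 1 library at that stage that is assumed to vary like the other groups, the single call was *Col23a1* (1.52 ± 0.22, adjusted p = 0.0178). Without KO gd14.5 replicate 1 there was also 1 call, without KO gd14.5 replicate 2 there were 2, and without KO gd16.5 replicate 2 there were 3.

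From gd16.5 to gd19.5, *Col7a1* and *Col23a1* rose in WT, and *Col13a1* and *Col15a1* fell. These 2 higher and 2 lower genes of 40 stood beside 1.20% and 0.939% of all genes. *Col7a1*, the gene of anchoring fibrils that fasten basement membranes to stroma, went from 2.69, 2.43 and 1.56 CPM to 6.33, 6.54 and 7.55 CPM (log2 fold change 1.61 ± 0.22, adjusted p = 0.00147, edgeR). *Col23a1* reached 33.5, 36.6 and 23.5 CPM (1.31 ± 0.17, adjusted p = 0.00123). It thus rose at each of the 3 steps in WT, and its levels did not overlap between any neighbouring stages. *Col13a1*, a transmembrane collagen of cell adhesion sites, went from 6.65, 7.07 and 8.13 CPM to 3.03, 3.17 and 1.84 CPM (-1.43 ± 0.20, adjusted p = 0.0016). *Col15a1* went back from 38.1, 21.0 and 47.0 CPM to 17.6, 13.4 and 9.35 CPM (-1.39 ± 0.30, adjusted p = 0.0146). This call was lost without WT gd16.5 replicate 3 (-1.13, adjusted p = 0.0577), without WT gd19.5 replicate 2 (-1.39, adjusted p = 0.0587) and without WT gd19.5 replicate 3 (-1.19, adjusted p = 0.0741). Without WT gd16.5 replicate 1, the library high in yolk sac endoderm markers, all 4 genes were still called, with *Col7a1* at 1.76, *Col23a1* at 1.29, *Col13a1* at -1.50 and *Col15a1* at -1.33. All 8 basement membrane genes had negative log2 fold changes at this step, beside 51.47% of all genes, and *Col15a1* was the only one called.

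In KO, 0 of 39 genes were called at this step, beside 0.255% of all genes higher and 0.439% lower. With an unadjusted p under 0.05 there were 9, beside 18.3% of all genes, and DESeq2 called 2, *Col15a1* and *Col23a1*. Without KO gd10.5 replicate 2, which enters the fit through the shared spread, edgeR called 3, and without KO gd16.5 replicate 1 it called 1. *Col23a1* stood at 24.4, 11.3 and 11.7 CPM at gd16.5 and at 37.8, 34.5 and 27.3 CPM at gd19.5 (log2 fold change 1.07 ± 0.27, adjusted p = 0.0677, edgeR), without overlap. *Col15a1* was -1.36 ± 0.35 (adjusted p = 0.0736), *Col7a1* 0.68 ± 0.18 (adjusted p = 0.0865) and *Col13a1* -0.65 ± 0.26 (adjusted p = 0.205). *Col12a1* had an adjusted p of 0.0389 with a log2 fold change of 0.71, under the fold-change limit.

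**Figure D3:**
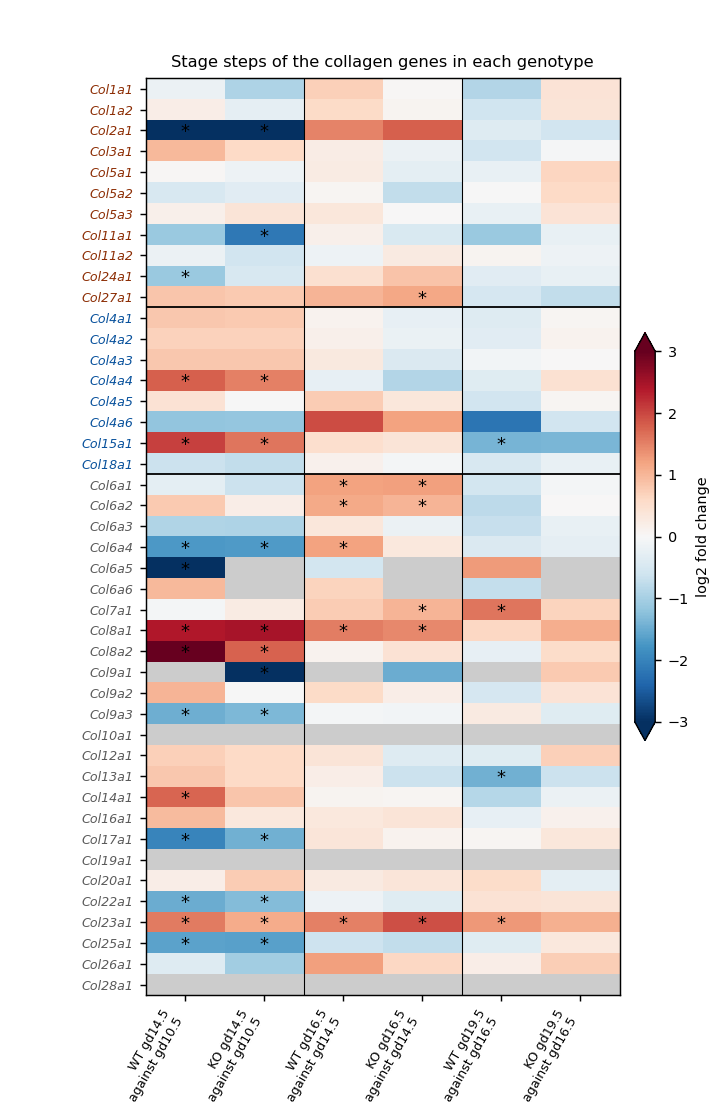
Log2 fold changes of the 44 collagen genes between neighbouring stages, in WT and in KO, with red for higher and blue for lower at the later stage, an asterisk where a gene was called and grey where it was not tested. Gene names are coloured by class, with fibrillar genes on top, basement membrane genes next and other types below. *Col23a1* and *Col8a1* are red in every column, and more asterisks fall in the first pair of columns (14 in WT and 13 in KO) than in the others.

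**Figure D4:**
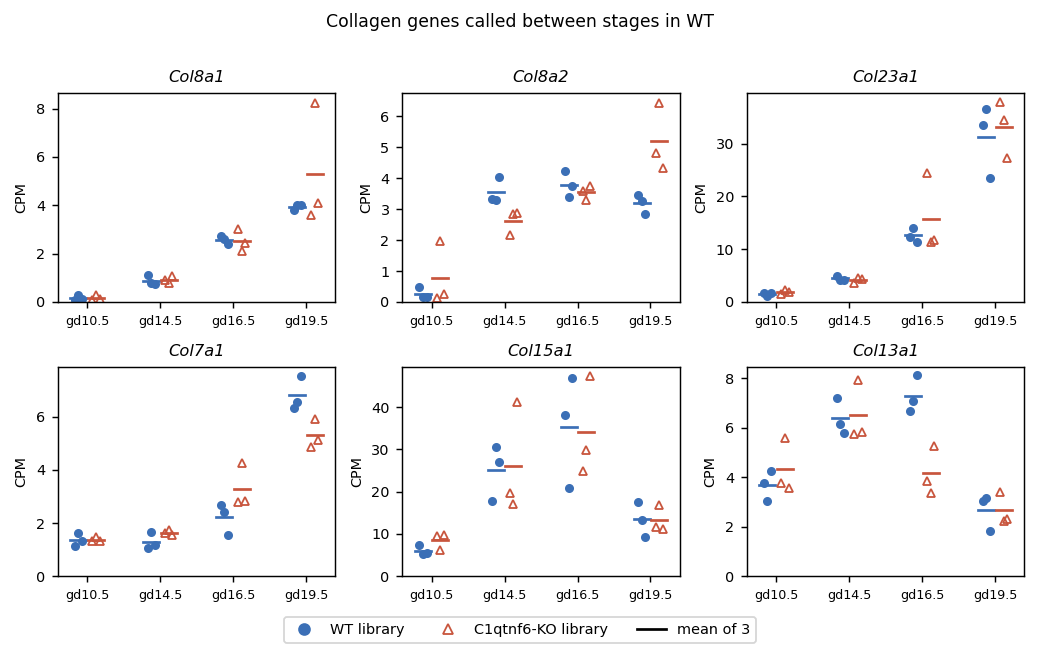
Levels in CPM of *Col8a1*, *Col8a2*, *Col23a1*, *Col7a1*, *Col15a1* and *Col13a1* in each library by gestational day, with blue circles for WT, red open triangles for KO and a line for the mean of 3. *Col23a1* reaches 23.5 to 37.8 CPM at gd19.5 from 1.13 to 2.32 CPM at gd10.5, and *Col15a1* peaks at gd14.5 and gd16.5.

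The enzymes and partners of the collagens were counted in 5 lists. Among all genes, 10.7% rose and 11.6% fell at the first step in WT, 3.04% and 2.55% at the second, and 1.20% and 0.939% at the third, and the counts of each list are to be read against these shares. Of 18 genes for collagen folding and modification, 4 rose and 1 fell between gd10.5 and gd14.5 in WT, with a median log2 fold change of 0.59. The lysyl hydroxylase genes moved in opposite directions, with *Plod1* at 1.44 ± 0.13 and *Plod2* at -1.24 ± 0.14, and *P4ha1*, a subunit of prolyl 4-hydroxylase, rose by 1.13 ± 0.09. In KO *Plod1* and *Plod2* were also called (1.14 and -1.10), and *P4ha1* stood at 0.999, just under the fold-change limit. Of 13 genes for processing and cross-linking, 3 rose and 4 fell. The procollagen N-proteinase genes *Adamts3* (-2.33 ± 0.20) and *Adamts14* (-1.83 ± 0.12) fell and the tolloid-like protease gene *Tll2* rose (1.82 ± 0.36), each also called in KO.

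Among 9 proteoglycans and other regulators of fibrils, 3 rose and 1 fell at the first step in WT. The small leucine-rich proteoglycans *Lum*, *Ogn* and *Fmod*, which bind fibrils and set their width, rose by 3.38 ± 0.29, 3.30 ± 0.33 and 3.23 ± 0.35, and by 2.56, 2.34 and 2.29 in KO. Of 10 collagen receptors, 2 rose and 1 fell, led by the integrin gene *Itga11* (3.09 ± 0.23). Of 16 basement membrane partners, 2 rose and 1 fell, led by the laminin genes *Lamc3* (2.62 ± 0.27) and *Lama2* (2.02 ± 0.21). At the second step in WT, *Lamb3* (1.64 ± 0.24) was the only called gene of these 5 lists. At the third, *Loxl4*, a lysyl oxidase of collagen cross-linking, rose by 2.32 ± 0.21, and *Pcolce2* (-1.84 ± 0.50) and *Tll1* (-1.65 ± 0.35) fell. *Pcolce2* was at or under the detection limit in 2 of the 3 WT libraries of gd19.5, so its fold change is not well determined, and in KO its value was 1.53 (adjusted p = 0.081, edgeR), in the other direction. At this step 17 of 18 folding genes had negative log2 fold changes, beside 51.47% of all genes, and 0 were called. With an unadjusted p under 0.05 there were 10 of these, beside 24% of all genes.

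Marker lists of other cells moved at every step too. Their counts in WT are to be read against the shares of all genes given above. In KO, 8.53% of all genes rose and 10.2% fell at the first step, 4.78% and 2.76% at the second, and 0.255% and 0.439% at the third. Of the 7 yolk sac endoderm markers, 2 fell in WT and 7 fell in KO at the first step. The fall in WT rested on replicate 1 of gd10.5, where the markers summed to 3932.4 CPM. The other WT libraries of gd10.5, at 15.4 and 21.8 CPM, were below the 67.6 to 130.3 CPM of WT at gd14.5. All 6 decidual stroma markers fell in WT and 4 of 6 in KO, and the list summed to 5907.2 to 13276.4 CPM in WT at gd10.5 and to 2443.5 to 2747.0 CPM at gd14.5. Smooth muscle markers had 2 of 7 higher and 1 lower in WT, with *Myh11* at 2.81 ± 0.18 and *Des* at -1.13 ± 0.17. Their sum was lower at the later day, at 1082.1 to 1499.0 CPM in WT at gd10.5 and 741.8 to 806.4 CPM at gd14.5. Of 5 junctional zone markers, 3 rose in WT. Also at this step in WT, 3 of 6 labyrinth markers rose, and 2 of 5 giant cell markers rose and 2 fell. Of 6 mesenchyme and fibroblast markers 2 rose and 2 fell, and of 6 mesothelium markers 1 rose and 2 fell. At the second step, 3 of 7 smooth muscle markers rose in WT, with a sum of 616.4 to 845.6 CPM at gd16.5. In KO, 4 of 6 decidual stroma markers fell (median log2 fold change -1.19) and 7 of 7 yolk sac endoderm markers rose (median 6.56). The yolk sac sum at gd16.5 was 7813.4 and 22124.9 CPM in KO replicates 1 and 2 but 169.4 CPM in replicate 3. At the third step in WT, 2 of 6 labyrinth markers fell, and all 6 had negative log2 fold changes. Of 5 giant cell markers 1 rose, of 5 cartilage markers 1 rose and 1 fell, and of 6 mesothelium markers 1 rose. In KO, 2 of 7 smooth muscle markers rose at the third step. There 1 of 7 yolk sac endoderm markers and 1 of 5 markers of uterine gland epithelium fell. The part that such shifts have in the collagen changes was not tested.

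The deletion of *C1qtnf6* was then compared with WT at each stage. No collagen gene was called at any stage. Of 39 genes tested at gd10.5, 0 passed, beside 0% of all genes higher and 0.00572% lower. Of 38 genes tested at each later stage, 0 passed, beside 0.0111% higher and 0.00555% lower among all genes at gd14.5. The shares were 0% and 0.00586% at gd16.5. They were 0% and 0.0230% for the last stage. With an unadjusted p under 0.05 there were 0, 3, 9 and 7 collagen genes at the 4 stages, in order, beside 0.801%, 6.78%, 11.1% and 13.5% of all genes. DESeq2, on the libraries of the stage and on all 24, also called 0 at each. So few genes of any kind passed in edgeR that the absence of collagen calls there does not set them apart. With DESeq2 at the same limits, the study reported more changed genes at gd16.5 and gd19.5 than edgeR called here. The share of all genes that DESeq2 called is not given here. In stage order, the median log2 fold changes of the collagen genes were 0.23, 0.02, -0.16 and 0.22, beside medians between -0.01 and 0.01 for all genes. Positive values were found in 32 of 39, 20 of 38, 9 of 38 and 27 of 38 collagen genes. Among all genes, 46.8%, 50.84%, 48.36% and 51.67% had negative values.

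At gd10.5 the lowest unadjusted p was that of *Col6a2* (log2 fold change 0.40 ± 0.19, adjusted p = 1, edgeR), followed by *Col15a1* (0.49 ± 0.24), *Col3a1* (0.43 ± 0.24), *Col24a1* (-0.73 ± 0.42) and *Col4a1* (0.23 ± 0.14). In each of them the libraries of the genotypes overlapped. All KO libraries of this day and only WT replicate 1 were high in yolk sac endoderm markers, so no comparison could be made without them. Without WT replicate 1, or without KO replicate 2, 0 genes were called. At gd14.5 the 5 genes with the lowest p were *Col8a2* (-0.42 ± 0.16, adjusted p = 0.71, edgeR), *Col20a1* (0.35 ± 0.14), *Col9a3* (0.49 ± 0.22), *Col5a3* (0.22 ± 0.11) and *Col14a1* (-0.15 ± 0.08).

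At gd16.5 the 5 genes with the lowest p all had lower levels in KO, without overlap between the libraries. They were picked by p from these same libraries, and the share of all genes without overlap was not counted. *Col5a2* and *Col9a2* were also lower without overlap, while *Col6a5*, *Col7a1* and *Col20a1* were higher in KO without overlap. *Col6a5* had 1, 1 and 3 counts in WT and 4, 5 and 5 in KO, at or near the detection limit, and was not tested at this stage. *Col13a1* was at 3.84, 3.36 and 5.25 CPM in KO and 6.65, 7.07 and 8.13 CPM in WT (log2 fold change -0.80 ± 0.19, adjusted p = 0.363, edgeR). *Col12a1*, a FACIT of type I fibrils, was at 105.4, 101.5 and 107.8 CPM in KO and 132.0, 165.3 and 247.2 CPM in WT (-0.78 ± 0.21, adjusted p = 0.385). *Col4a4* (-0.78 ± 0.25), *Col11a1* (-0.62 ± 0.21) and *Col4a3* (-0.42 ± 0.15) followed. All 8 basement membrane genes had negative values, with a median of -0.29, beside 48.36% of all genes with negative values. *Col4a1* and *Col4a2* were among them, and their libraries overlapped between the genotypes. *Col4a1* was at 2027.6 to 2551.6 CPM in KO and 1982.1 to 3274.0 CPM in WT. Without the 3 libraries of this stage that had high yolk sac endoderm markers, which leaves 1 KO library assumed to vary like WT, *Col12a1* was -0.92 ± 0.24 (adjusted p = 0.0378), under the fold-change limit, and 0 genes were called. At this stage the 6 decidual stroma markers had a median of -0.65 in KO, 7 endothelial markers -0.35 and 7 smooth muscle markers -0.41, with 0 of each called. The decidual markers summed to 1574.0 to 2180.5 CPM in KO and 1669.3 to 2502.7 CPM in WT, and the 5 junctional zone markers to 34937.4 to 37952.0 CPM in KO and 20938.9 to 29167.4 CPM in WT. The part of these shifts in the collagen values was not tested.

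At gd19.5 the values turned positive for most genes. *Col8a2* was at 4.81, 6.45 and 4.33 CPM in KO and 3.47, 3.25 and 2.84 CPM in WT (0.68 ± 0.18, adjusted p = 0.186, edgeR). *Col20a1*, a sparse FACIT, was at 4.46, 4.67 and 4.09 CPM in KO and 6.25, 5.6 and 5.63 CPM in WT (-0.43 ± 0.12, adjusted p = 0.203). *Col7a1* (-0.38 ± 0.13), *Col14a1* (0.48 ± 0.18) and *Col9a2* (0.51 ± 0.19) followed. KO replicate 2 had the highest level of *Col1a1* (169.5 CPM against 67.6 to 96.9 CPM in the other 5 libraries), *Col4a1* and *Col8a1* at this stage. Smooth muscle markers had a median of 0.49 in KO and endothelial markers 0.27, with 0 of 7 called in each, and whether they have a part in the collagen values was not tested. The 5 lists of collagen enzymes and partners had 0 genes called in KO against WT at every stage.

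**Figure D5:**
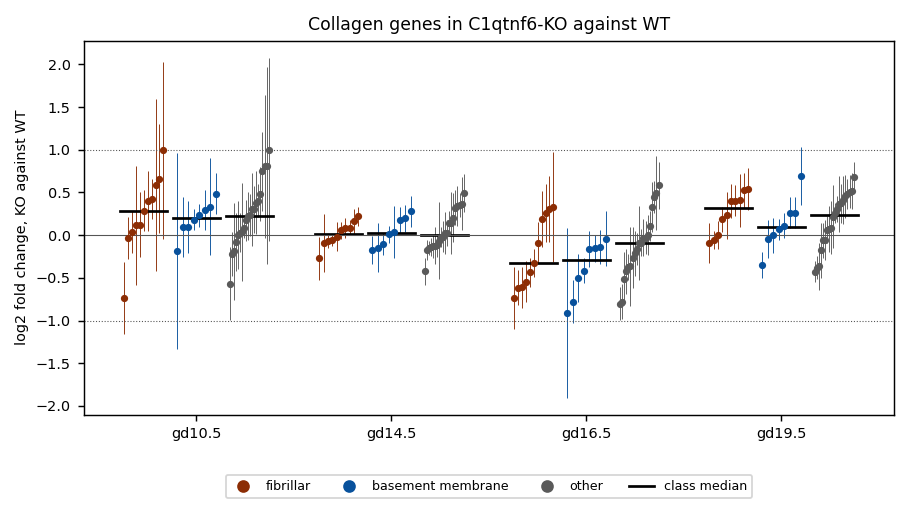
Log2 fold change of each tested collagen gene in KO against WT at each stage, by class, with bars of 1 standard error, a black line for the class median and dotted lines at the fold-change limit of 1. The median of the basement membrane genes is -0.29 at gd16.5, and that of the fibrillar genes goes from -0.33 at gd16.5 to 0.32 at gd19.5. No gene was called.

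Over all 4 stages in an additive model of stage and genotype, 0 of 42 collagen genes were called, beside 0.00518% of all genes higher and 0.00518% lower, and 0 had an unadjusted p under 0.05, beside 6.34% of all genes. DESeq2 called 0 as well. The lowest p was that of *Col9a3* (0.32 ± 0.17, adjusted p = 0.831, edgeR), then *Col4a4* (-0.22 ± 0.15), *Col4a1* (0.14 ± 0.10), *Col14a1* (0.22 ± 0.16) and *Col5a3* (0.16 ± 0.12). *Col9a3* shares 6.07% of its exon bases with *Tcfl5* on the opposite strand, and reads of the strands were counted together.

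Whether the genotype effect changed with stage was tested as an interaction over the 24 libraries. It was called for 0 of 42 collagen genes, beside 0% of all genes, so the stage steps of WT and KO were not shown to differ for any of them. Unadjusted, 5 genes had a p under 0.05, beside 7.23% of all genes, led by *Col12a1* (adjusted p = 0.509, edgeR), *Col20a1* (adjusted p = 0.582) and *Col13a1* (adjusted p = 0.662). DESeq2's likelihood ratio test called 1, *Col12a1* (adjusted p = 0.0488). Without WT gd10.5 replicate 1, 2 genes were called, *Col11a1* (adjusted p = 0.00215, edgeR) and *Col9a2* (adjusted p = 0.00507). Their WT level at gd10.5 rested on that library, as did that of *Col2a1*, *Col9a1* and *Col4a6*, which were not called. The WT libraries of gd10.5 left in that fit were low in yolk sac endoderm markers, and all KO libraries of that day were high. Genotype and the level of these markers cannot be told apart there.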

How the data were processed

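Per the labels and the study's methods, polyadenylated RNA of the MFI was made into stranded libraries, sequenced in pairs, trimmed with Trim Galore 0.6.4, aligned to GRCm38 with STAR 2.7.3a and counted with featureCounts (Subread 2.0.0) at default settings, which ignore strand and leave out reads with several alignments. The authors deposited raw counts per gene, with no normalization. Counts were analysed in R 4.3.3 with edgeR 4.0.16 (expression filter with a minimum count of 10 and minimum total of 15, TMM, quasi-likelihood test). Each KO group was compared with WT on the 6 libraries of the stage, stage steps were fitted on the 12 libraries of a genotype, and the additive and interaction models on all 24. Fits were tested on simulated data. Alternatives were RLE size factors, no filter, at least 10 counts in every library, a replicate block, 1 fit of all libraries, DESeq2 1.42.0, no fold-change limit and each library left out in turn. Leaving out libraries over 1000 CPM of yolk sac endoderm markers was added after seeing the data. The members and lists were chosen with earlier results of these data known. Genes named are the 12 most abundant per kb, up to 6 called per direction and WT step with their KO values, all called or the 5 lowest p in each genotype comparison, the 3 lowest interaction p, the type IV neighbours and up to 3 called genes per list and WT step; *Col9a1*, *Col11a1*, *Col1a1* and others singled out beside these were chosen after their values were seen. Library groups and replicate numbers follow the descriptions in the labels. The titles number the KO replicates differently (3 to 5 in place of 1 to 3), so the replicate block and the same-number check rest on the descriptions. Positions and exon lengths are from the deposited table, exon overlaps were checked against GENCODE M21, and sequences are from RefSeq (GRCm38.p6).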

Additional observations from a re-analysis of the deposited data

Results flagged for a closer look

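For 4 of the 42 collagen genes tested, all KO libraries were above all WT libraries at some stage and below them at another, beside 4.44% of all genes tested. The difference itself was tested as the genotype by stage interaction, and it passed the adjusted threshold in none of them (edgeR's quasi-likelihood test). *Col20a1* was higher in KO at gd14.5 and gd16.5 and lower at gd19.5 (unadjusted p = 0.00535, adjusted p = 0.582). *Col7a1* was higher in KO at gd16.5 and lower at gd19.5 (unadjusted p = 0.0247, adjusted p = 0.662). *Col8a2* was lower in KO at gd14.5 and higher at gd19.5 (unadjusted p = 0.092, adjusted p = 0.723), and so was *Col14a1* (unadjusted p = 0.0953, adjusted p = 0.727).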

How the results depend on the processing

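For the genes named by the stated rule, 1181 of 1242 values under alternatives kept direction and side of the threshold, 50 no longer passed it, 11 newly passed it and 0 changed direction. *Col11a1* and *Col4a6*, which are outside that tally, turned from lower to higher at the first WT step without WT gd10.5 replicate 1. The counts of called collagen genes moved by more than 1.5 times as follows. With at least 10 counts in every library, the first step gave 8 in WT and 8 in KO (14 and 13 as reported), and with no fold-change limit 24 and 22. The second step gave 8 in WT with no expression filter (5 as reported), and in KO 3 with the replicate block and 1 without the libraries high in yolk sac endoderm markers (6 as reported). The third step in KO (0 as reported) gave 2 with no filter, 2 with DESeq2, 3 with all 24 libraries in 1 fit and 1 with no fold-change limit. The interaction (0 as reported) gave 1 with DESeq2. Leaving out 1 library at a time gave 13 to 18, 2 to 7 and 3 to 5 calls at the WT steps, 10 to 19, 1 to 7 and 0 to 3 at the KO steps, 0 to 2 for the interaction and 0 to 0 for KO against WT at each stage and over stages. The cause of these shifts was not tested. Same-numbered WT and KO libraries did not deviate together at gd10.5 (correlations 0.047, -0.061 and -0.609) or gd16.5 (0.188, -0.405 and 0.536), were at 0.234, 0.091 and 0.271 at gd14.5 and 0.208, 0.092 and 0.258 at gd19.5, so the numbers were not taken to pair samples. With the replicate block, calls were 16, 5 and 4 at the WT steps, 12, 3 and 0 at the KO steps and 0 for KO against WT, for the additive model and for the interaction. Genes with few counts are limited by depth.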
